A study of Homo sapiens with 33 samples.

Results

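The RNA of sorted HepG2 cells was compared with the RNA of unsorted, bulk HepG2 cells for protein-coding genes. HepG2 is a human liver cancer line that keeps many hepatocyte functions, such as the secretion of plasma proteins. The sorted side held 12 libraries, from the cell-cycle fractions G1, S1, S2, S3, S4 and G2 with replicates 2 and 3 of each, and the bulk side held 3 libraries, replicates 1 to 3. These are 15 of the 33 samples of a study that set replication timing beside gene expression. No drug or genotype separates the groups, but their preparation does. Sorted RNA went into an ultra-low-input stranded total RNA kit (SMARTer), and bulk RNA, from 500000 cells extracted with a column kit, into a stranded mRNA kit (TruSeq). The kit, the amount of input and the sorting changed together, so they cannot be told apart, and each difference below belongs to the whole preparation. Both sides are labelled as nuclear RNA. The labels do not say which libraries came from separate cultures, so p-values measure the spread between these libraries.

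Of 78932 listed genes, 19235 were nuclear-encoded protein-coding genes other than the 68 replication-dependent histone genes left out. Each library was rescaled to a total of 1000000 TPM over these genes, and 10746 with a mean of at least 5 TPM (transcripts per 1000000, a level per length) over the 15 libraries were tested. The mean weights the sorted libraries more, since they are 12 of 15. A gene near 0 in bulk thus entered only through its sorted level. Just inside the limit stood IGFALS, with means of 5.82 TPM in sorted and 1.81 TPM in bulk, and just outside it SLC25A53, with 5.63 TPM and 2.45 TPM.

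An mRNA's abundance reflects how often its gene is transcribed, how fast the RNA is processed and exported, and how fast it decays. The mRNAs of the ribosome and of the translation factors are abundant, short and stable, and begin with a C followed by a run of pyrimidines, the 5′ terminal oligopyrimidine (TOP) motif, through which mTOR signalling controls their translation. The mRNAs of zinc-finger repressors, immediate early factors and many splicing regulators are low and short-lived. A poly(A)-selecting kit captures finished polyadenylated mRNAs, and a total RNA kit also primes unspliced, partly degraded and non-polyadenylated RNA.

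The bulk libraries held 22340799 to 24423548 reads recovered from the TPM steps and the sorted libraries 6127595 to 18481702. Protein-coding genes took 93.4% to 93.6% of the reads in bulk and 67.2% to 77.9% in sorted libraries. Bulk libraries correlated with each other at 0.993 to 0.995 (Pearson, log2 values across the genes tested) and the 2 replicates of a sorted fraction at 0.897 to 0.926. Between sorted fractions, the difference of replicate 2 from replicate 3 correlated at 0.560 to 0.668 across genes, so the 12 sorted libraries were not 12 independent samples. Of 11 hepatocyte markers 10 were tested, and their summed level was 28063 to 81006 TPM in sorted and 44946 to 45230.2 TPM in bulk libraries. The remaining one, APOB, the main protein of low-density lipoprotein, had means of 1.12 TPM in sorted and 0.111 TPM in bulk. Markers of other cells were low: 7 endothelial markers summed to 15.1 TPM on average in sorted and 0.952 TPM in bulk libraries, 7 neuronal markers to 7.75 TPM and 0.888 TPM, and 8 fibroblast markers to 20.9 TPM and 13.3 TPM. The 7 leukocyte markers summed to 2281 TPM and 2464 TPM, nearly all of it LYZ, lysozyme, while PTPRC, the defining leukocyte marker, was at 0.0536 TPM in sorted and 0 in bulk.

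Abundant mRNAs of the ribosome, energy metabolism and the cytoskeleton were lower in sorted libraries, and mRNAs of chromatin enzymes, splicing regulators, giant scaffolds and zinc-finger proteins were higher. In limma's moderated test on log2(TPM + 1) with Benjamini-Hochberg adjustment at 0.05, 5987 genes (55.7%) were higher in sorted libraries and 2011 (18.7%) lower. A call with a difference of at least 1 log2 unit was made for 4243 higher genes (39.5%) and 1043 lower genes (9.71%). The libraries of both sides did not overlap for 5382 genes that were higher (50.1%) and 1811 that were lower (16.9%). The unadjusted p was under 0.05 for 8221 genes. The median gene itself stood at +0.68 on the log2 scale, so the split between higher and lower depends on the scaling. With median-ratio scaling, which sets the typical gene near 0, the median was -0.07 and 3711 genes (34.5%) were higher and 4163 (38.7%) lower, and higher genes were 47.1% of the called in place of 74.9%. All 2011 lower calls were also lower calls there, 3711 of the 5987 higher calls were kept, and 215 turned into lower calls. On the deposited TPM, whose total includes non-coding RNA, the median was -1.71, with 598 genes higher and 8888 lower, and with quantile normalization it was 0.02. Gene lists are therefore also described against the median gene, which removes this shift. Over 4 other scalings, ribosomal proteins stood -2.66 to -1.41 from the median gene, translation factors -2.69 to -1.35, short abundant mRNAs -2.45 to -1.25 and the respiratory chain -1.30 to -0.81. On the other side, zinc-finger genes stood 0.68 to 1.22, giant scaffolds 0.79 to 0.99, splicing regulators 0.68 to 1.25 and cholesterol synthesis 0.47 to 1.14. None of these 8 lists crossed the median gene under them.

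**Figure D1:**
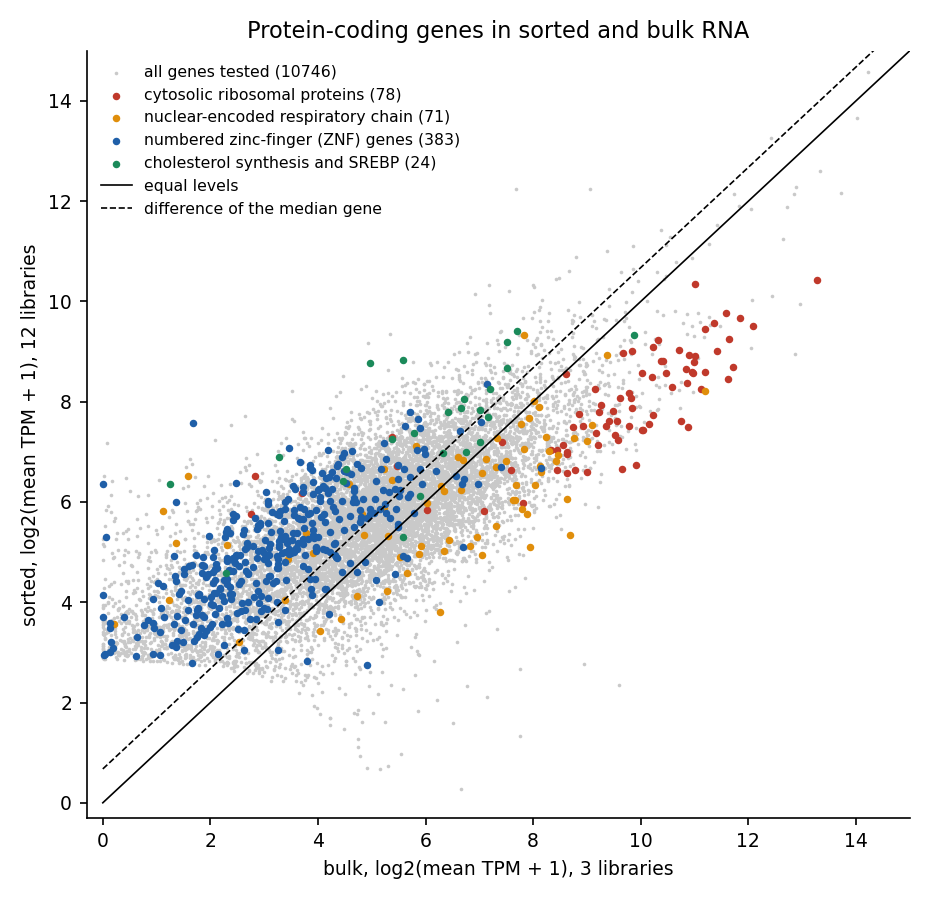
Mean level of each of 10746 protein-coding genes in the 3 bulk libraries (x axis) and the 12 sorted libraries (y axis), both as log2(TPM + 1), with 4 gene lists coloured. Most ribosomal protein genes lie below the line of equal levels, and most zinc-finger genes lie above the dashed line, which marks the median gene at +0.68; the empty corner at low values comes from the limit of 5 TPM.

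The mRNAs of the cytosolic ribosome were the largest group on the lower side. Of 89 genes for ribosomal proteins 78 were tested, and 71 were lower and 5 higher (median-ratio scaling: 73 and 5), with a median difference of -1.82. The 89 genes together took 100046 ± 1337 TPM in bulk (SD, n = 3) and 24679.7 ± 1499 TPM in sorted libraries (SD, n = 12), a ratio of 4.05. Translation factors and other mRNAs of the TOP class were mostly lower too. Of 19 tested, 16 were lower and 3 higher, with a median of -1.84. The first bases of some genes with high levels are shown because the motif that defines the class stands there. Each window of 30 bases runs from 15 bases before the annotated start of transcription to 15 bases from it (RefSeq, GRCh38.p14), and capitals mark the pyrimidine run that starts at the first transcribed base. Ribosomal and translation genes were taken by bulk level and zinc-finger genes by sorted level. The choice was made among genes with a RefSeq promoter entry and did not cover every chromosome, so higher genes may be missing. The last 3 lines, the zinc-finger genes, carry no such run.
RPS12, chr6:132814554-132814583, plus strand: gcgtgcggatgaggcCTCTTTCCCTgccgc
RPLP0, chr12:120201097-120201126, minus strand: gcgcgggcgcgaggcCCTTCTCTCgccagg
RPL13A, chr19:49487593-49487622, plus strand: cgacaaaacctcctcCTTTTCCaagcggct
RPL3, chr22:39319609-39319638, minus strand: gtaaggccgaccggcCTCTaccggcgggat
EEF1A1, chr6:73521018-73521047, minus strand: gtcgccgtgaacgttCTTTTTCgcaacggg
EEF2, chr19:3985449-3985478, minus strand: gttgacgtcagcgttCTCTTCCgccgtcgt
EIF4B, chr12:53006441-53006470, plus strand: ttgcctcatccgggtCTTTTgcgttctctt
ZNF638, chr2:71331767-71331796, plus strand: tgcgtgcagctctttggaggcggtagcgtt
ZNF189, chr9:101398836-101398865, plus strand: ggtccgggggcgggcggtcatagcgttact
ZNF622, chr5:16465786-16465815, minus strand: gccggaagtttcctcagtgacaatcaggaa

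RPS12 encodes a protein of the small subunit and was the highest ribosomal gene in bulk, at 9819, 9979.7 and 9815 TPM in replicates 1 to 3. Its sorted libraries read from 1088 to 1651 with a median of 1395 TPM. Every sorted library lay far below every bulk library, a difference of -2.85 ± 0.12 log2 units (standard error; limma adjusted p = 4.54e-09). RPLP0, of the ribosomal stalk, stood at 4336, 4373 and 4367 TPM in bulk and from 584 to 862 with a median of 735 TPM in sorted libraries, which did not overlap either (-2.60 ± 0.13, limma adjusted p = 1.45e-08). EEF1A1, the elongation factor that brings aminoacyl-tRNA to the ribosome, differed most in the TOP list. It read 7424, 7614 and 7481 TPM in bulk and from 459 to 547 with a median of 484 TPM in sorted libraries, and its sorted libraries lay close together, far under bulk (-3.93 ± 0.09, limma adjusted p = 8.83e-11). EEF2, the translocase of the ribosome, read 4533, 3831 and 4539.6 TPM in bulk and from 812 to 1410.3 with a median of 999 TPM in sorted libraries, again without overlap (-2.06 ± 0.22, limma adjusted p = 5.02e-06). EIF4B, which helps the helicase of initiation, was lower as well (-2.78 ± 0.09 in the same units), and RPL7, a large-subunit protein, was the lowest of the ribosomal list (-3.39 ± 0.08).

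A few members went the other way. RPS10 had 6.11 ± 1.10 TPM in bulk and 90.3 ± 28.0 TPM in sorted libraries (SD), and RPL36A 5.74 ± 0.647 TPM and 53.2 ± 19.1 TPM. Both levels are far under those of RPS12 and RPLP0, whose proteins serve in equal numbers in the ribosome, and each of these 2 genes overlaps another gene in RefSeq. Low ribosomal genes were not limited to them. Of the 89 genes 11 fell below the limit of 5 TPM, and 6 were at 0 in every bulk library. EEF1B2, which recharges EEF1A1, was higher in sorted libraries (2.42 ± 0.44, limma adjusted p = 0.00041). EEF1D, of the same complex, read 1.78, 1.15 and 20.2 TPM in bulk, so that its call rests on bulk replicates that differ more than 10-fold among themselves.

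Ribosomal protein pseudogenes are near copies of these genes, and whether reads were shared between them was not tested. The 1600 annotated ribosomal protein pseudogenes took 21727 ± 512 TPM in bulk and 10548 ± 1181 TPM in sorted libraries, on the scale on which protein-coding genes sum to 1000000 (SD). Genes and pseudogenes together were 3.46-fold higher in bulk, against 4.05-fold for the genes alone. With the copies added, the ribosomal sum was thus still higher in bulk.

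The pyrimidine start was searched as C followed by at least 4 bases that are each C or T, from the first annotated base on the strand of the gene. RPL3, whose run has 4 bases in all, falls short of it. It was found in 1104 of 27305 promoter entries (4.04%), 498 of 8846 genes tested that have an entry (5.63%), 41 of 64 ribosomal protein genes (64.1%), 10 of 11 genes of the translation list (90.9%) and 15 of 337 zinc-finger genes (4.45%). Ribosomal protein genes with the run had a median difference of -1.72 and the 23 without it of -1.83, with interquartile ranges of -2.40 to -1.14 and of -2.35 to -1.39 that cover each other. The 447 other tested genes with the run had a median of 0.30, which is 0.37 below the median gene, and 44.1% of them were higher and 28.6% lower, against 55.7% and 18.7% of all genes tested. A match says only which letters stand at the annotated start.

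Other short, abundant mRNAs were lower as well. Of 21 tested genes of ferritin, thymosin, calcium-binding and peroxide-reducing proteins, 17 were lower and 0 higher, with a median of -1.59. FTL, the light chain of the iron store ferritin, read 7851, 7776 and 8195 TPM in bulk and from 846 to 1104 with a median of 1003 TPM in sorted libraries. No sorted library came near the bulk level (-3.02 ± 0.11, limma adjusted p = 1.98e-09). Its partner chain FTH1 differed by -1.59 ± 0.14 and the actin-binding peptide TMSB10 by -2.06 ± 0.29. Among 13 genes for actin, tubulin, keratin and their linkers 9 were lower and 1 higher (median -1.08). TUBA1B, an alpha-tubulin, read 1098, 1185 and 1176 TPM in bulk and from 178 to 283 with a median of 219 TPM in sorted libraries, which lay far apart (-2.37 ± 0.11, limma adjusted p = 9.38e-09). KRT18, a keratin of liver cells, had a difference of -2.37 ± 0.13. ACTB was lower (-1.30 ± 0.12). ACTG1, the other cytoplasmic actin, was the exception, at 24.4 ± 8.97 TPM in bulk and 65.7 ± 29.7 TPM in sorted libraries (1.35 ± 0.35, limma adjusted p = 0.0041), and its call was lost with median-ratio scaling (adjusted p = 0.153).

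Energy metabolism lay on the same side. Of 71 tested nuclear genes of the respiratory chain and ATP synthase, 42 were lower and 15 higher (median -0.62), and together the list took 12891 ± 37.4 TPM in bulk and 6644 ± 366 TPM in sorted libraries (SD). ATP5F1B, the catalytic beta subunit of ATP synthase, read 2357, 2338 and 2329 TPM in bulk and from 243 to 347 with a median of 298 TPM in sorted libraries. The sorted values stayed within a narrow band far from bulk (-2.98 ± 0.11, limma adjusted p = 1.7e-09). COX8A, a small subunit of cytochrome oxidase, had the largest fall of the list (-3.55 ± 0.40). Among 16 tested glycolysis genes 6 were lower and 4 higher (median -0.48). GAPDH read 5518, 5497 and 5691 TPM in bulk and from 759 to 1485 with a median of 1105 TPM in sorted libraries, without overlap (-2.38 ± 0.25, limma adjusted p = 4.11e-06), and ENO1, enolase, was lower (-1.87 ± 0.38). ALDOA, aldolase, was higher (2.85 ± 0.29), but from 7.20 ± 2.00 TPM in bulk, a level far under that of its neighbours in the pathway. The mitochondrial carriers SLC25A5 and SLC25A3, which exchange ATP for ADP and import phosphate, differed by -2.87 ± 0.11 and -2.34 ± 0.15. Of 199 tested solute carriers 98 were higher and 36 lower, near the 55.7% and 18.7% of all genes tested. The family stood at -0.16 from the median gene, and median-ratio scaling gave 58 higher and 81 lower.

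Protein-folding and stress-buffering mRNAs followed. Of 12 tested subunits of the chaperonin CCT and of prefoldin, which fold actin and tubulin, 10 were lower and 1 higher (median -1.10). CCT7 and CCT5 differed by -1.38 ± 0.08 and -1.42 ± 0.12. The higher member, PFDN5, stood at 0.166 ± 0.00917 TPM in bulk. Among 18 heat shock chaperones 12 were lower and 2 higher (median -0.75). HSP90AB1, the constitutive cytosolic HSP90, read 6368, 6596 and 6338 TPM in bulk and from 2202 to 2654 with a median of 2410.3 TPM in sorted libraries, which were close to one another and all below bulk (-1.41 ± 0.11, limma adjusted p = 4.46e-07). HSPA8 was lower (-1.62 ± 0.35), and so was HSPB1, a small heat shock protein (-3.38 ± 0.17). Targets of NRF2, the regulator of the response to oxidants, had 13 lower and 5 higher members of 22 tested (median -0.69), with HMOX1, heme oxygenase, lower (-2.63 ± 0.37). FTL and FTH1 are in this list too. Of 32 tested genes for the translocon, signal peptidase and oligosaccharyl transferase of the endoplasmic reticulum 21 were lower and 4 higher (median -0.36). DDOST, a subunit of the transferase, differed by -2.14 ± 0.17 and SRP9, of the signal recognition particle, by -2.10 ± 0.22. RPN2, another subunit of the same transferase, was higher instead (3.59 ± 0.35), at 20.3 ± 1.79 TPM in bulk and 292 ± 142 TPM in sorted libraries.

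Lists of other housekeeping complexes lay nearer to equal levels but still under the median gene. The 73 tested mitochondrial ribosomal proteins had 19 higher and 28 lower members and a median of -0.10. MRPL10 was lower (-2.06 ± 0.15) and MRPS5 higher (3.15 ± 0.24). MRPS5 was at 3.18 ± 0.607 TPM in bulk (SD) and passed the limit of 5 TPM through its sorted level. The 33 tested proteasome subunits had 9 higher and 14 lower members (median -0.22), the 20 aminoacyl-tRNA synthetases 7 and 6 (median -0.17), and the 19 Sm and LSm proteins, which form the core of the spliceosomal particles, 5 and 8 (median -0.21). Against the median gene these 4 lists stood at -0.77, -0.90, -0.84 and -0.89. With median-ratio scaling the lower calls were 53 of 73, 26 of 33, 14 of 20 and 15 of 19.

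**Figure D2:**
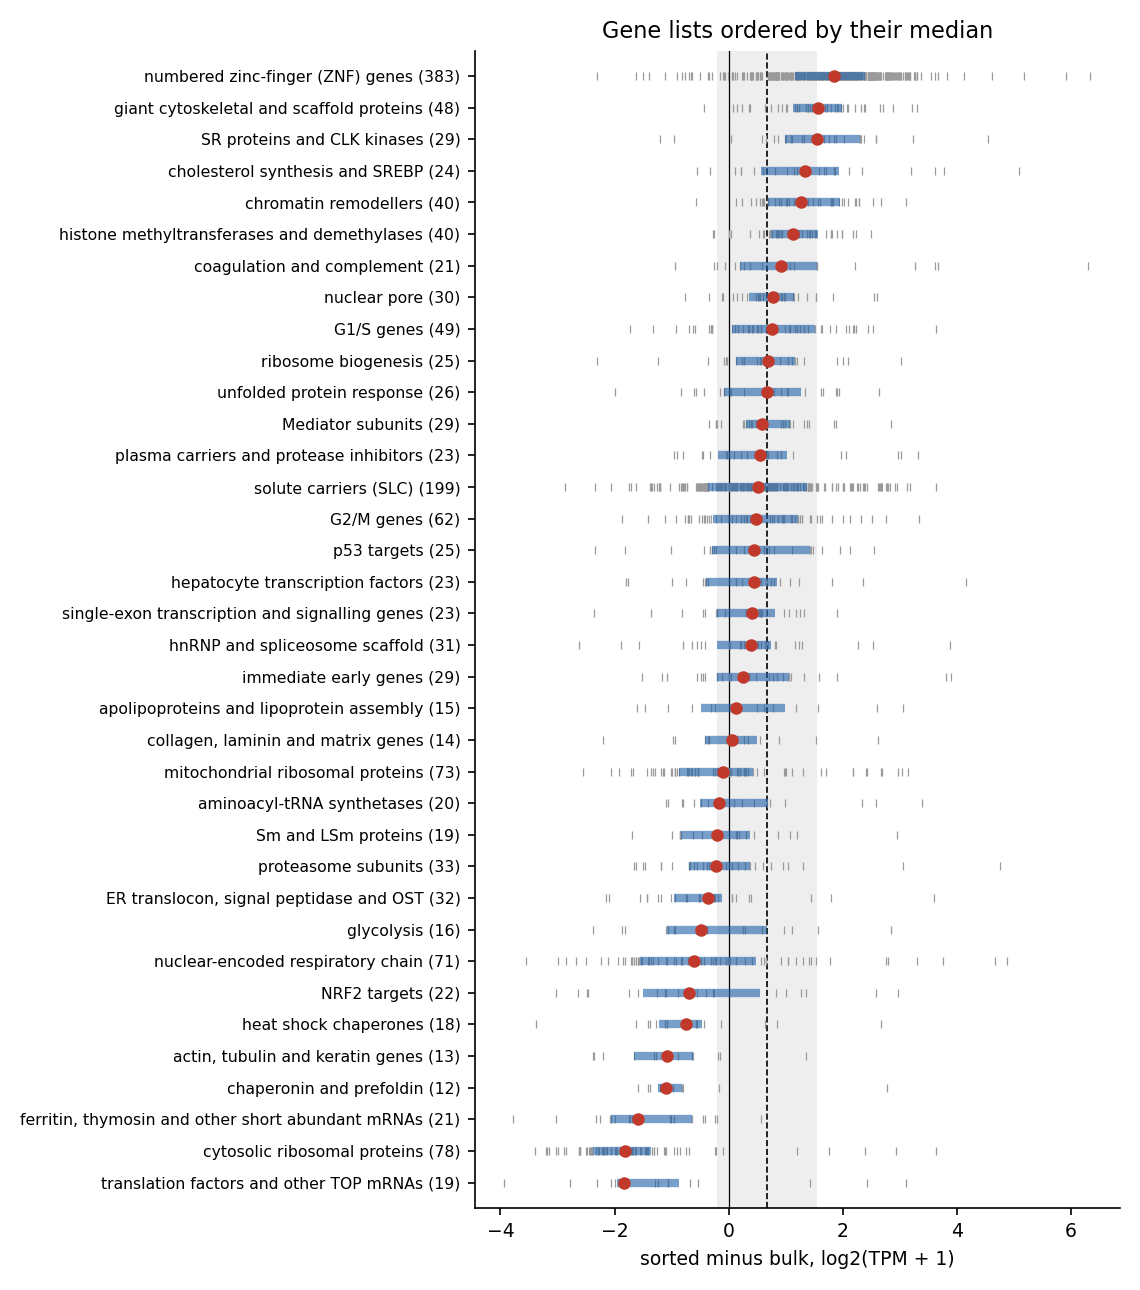
Difference of each tested gene (grey ticks) by list, as log2(TPM + 1) in sorted minus bulk libraries, with the list median (red point) and its interquartile range (blue bar); numbers in brackets are genes tested. The solid line marks equal levels, the dashed line the median of all 10746 genes at +0.68 and the grey band their interquartile range; medians run from -1.84 for translation factors to 1.85 for zinc-finger genes.

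The mRNAs of secreted liver proteins held the top of both sides. As lists, plasma carriers stood at -0.12 from the median gene, coagulation and complement genes at 0.25 and apolipoproteins at -0.54. ALB, serum albumin, was the highest gene in both, at 19069, 19332 and 19121 TPM in bulk and from 11257 to 38717 with a median of 26484 TPM in sorted libraries, which fell on both sides of bulk (0.22 ± 0.42, limma adjusted p = 0.639). AFP, alpha-fetoprotein, read 16482, 16974 and 16204 TPM in bulk and from 6513 to 18887 with a median of 13133 TPM in sorted libraries (-0.46 ± 0.39, limma adjusted p = 0.3), and was called lower with median-ratio scaling (-1.23, adjusted p = 0.0468). Both genes were higher in every sorted library of replicate 2 than in any of replicate 3. Of 23 tested plasma carriers and protease inhibitors 7 were higher and 2 lower (median 0.56, and 5 and 6 with median-ratio scaling). Among all genes tested 55.7% were higher and 18.7% lower. The sum of the plasma carriers and protease inhibitors was 66420.1 ± 26084 TPM in sorted and 69233 ± 508 TPM in bulk libraries (SD). Apolipoproteins were divided, with 7 higher and 4 lower of 15 (median 0.13, and 3 and 9 with median-ratio scaling). APOA1, the main protein of high-density lipoprotein, was higher, at 9845 ± 3093 TPM against 5513 ± 403 TPM in bulk (0.77 ± 0.29, limma adjusted p = 0.0311), but was not called with median-ratio scaling (0.01, adjusted p = 0.991). APOA1 too was higher in every sorted library of replicate 2 than in any of replicate 3. APOA2, its shorter partner in the same particle, read 13238, 13715 and 13627 TPM in bulk and from 2673 to 6493 with a median of 4560.2 TPM in sorted libraries and was lower without overlap (-1.61 ± 0.29, limma adjusted p = 0.000356). Coagulation and complement genes had 10 higher and 1 lower members of 21 tested (median 0.92, and 6 and 6 with median-ratio scaling). FGB, the fibrinogen beta chain, was higher (1.14 ± 0.16), a call lost with median-ratio scaling (0.37, adjusted p = 0.157). F12, coagulation factor XII, was higher from 2.76 ± 0.823 TPM in bulk (3.66 ± 0.44), and PROS1, protein S, was lower (-0.93 ± 0.10). The thyroid hormone carrier TTR was lower (-0.90 ± 0.25).

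The transcription factors behind these genes were also divided. Of 23 tested hepatocyte factors 10 were higher and 5 lower (median 0.44), against 55.7% and 18.7% of all genes tested. The list stood at -0.23 from the median gene, and median-ratio scaling gave 4 higher and 11 lower. HNF4A, the nuclear receptor at the centre of the hepatocyte network, read 205, 209 and 209 TPM in bulk and from 269 to 572 with a median of 324 TPM in sorted libraries, all above bulk (0.74 ± 0.17, limma adjusted p = 0.00216), but was not called with median-ratio scaling (-0.03). ONECUT1, which acts upstream in liver development, was at 5.32 ± 0.526 TPM in bulk and 116 ± 29.4 TPM in sorted libraries (4.17 ± 0.15). FOXA3, a forkhead factor, and NR0B2, a corepressor that answers to bile acids, were lower (-1.79 ± 0.19 and -1.76 ± 0.33).

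Lists tied to growth and stress were mixed. The unfolded protein response had 16 higher and 4 lower of 26 tested (median 0.67), near the 55.7% and 18.7% of all genes tested. It stood at -0.007 from the median gene, and median-ratio scaling gave 6 higher and 11 lower. CALR, a lectin chaperone, was higher (1.05 ± 0.13, but 0.28 and adjusted p = 0.214 with median-ratio scaling). CRELD2, an endoplasmic reticulum chaperone partner, was higher (2.64 ± 0.38), and the stress regulators ATF4 and TRIB3 were lower (-0.83 ± 0.09 and -1.98 ± 0.17). Ribosome biogenesis had 15 higher and 2 lower of 25 (median 0.69), a higher share near the 55.7% of all genes tested. It stood at 0.01 from the median gene, where ribosomal proteins stood at -2.50. Median-ratio scaling gave 7 higher and 9 lower. NOP56, which guides RNA methylation in the nucleolus, read 433, 444 and 446 TPM in bulk and from 998 to 2899.8 with a median of 1745 TPM in sorted libraries, all above bulk (2.00 ± 0.32, limma adjusted p = 0.00015); 6 other RefSeq genes lie within or across its span. MDN1, a giant assembly ATPase, was higher (2.10 ± 0.11), and NPM1, an abundant nucleolar chaperone that is in the TOP list too, lower (-2.30 ± 0.09). Mediator (17 higher and 1 lower of 29, median 0.58) and the nuclear pore (22 and 1 of 30, median 0.77) stood within 0.10 of the median gene. The 29 immediate early genes had 7 higher and 2 lower members, and 3 and 11 with median-ratio scaling, and stood at -0.42 from the median gene. The 25 p53 targets had 9 and 3, and 4 and 9, and stood at -0.23. JUN was higher (1.90 ± 0.20, limma adjusted p = 4.55e-06), whereas EGR1 at -1.08 and MYC at -0.20 did not pass the test (adjusted p = 0.0532 and 0.201). Both were called lower with median-ratio scaling (-1.84 and -0.97, adjusted p = 0.00817 and 6.1e-05), and every sorted library of EGR1 lay below bulk. MDM2, which degrades p53, was higher (1.44 ± 0.44), but not called with median-ratio scaling (0.67, adjusted p = 0.127). CCNG1, a cyclin induced by p53, was lower (-2.34 ± 0.24), and CDKN1A, the p53-induced cell-cycle inhibitor, did not pass (-0.25 ± 0.61, limma adjusted p = 0.719).

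The sorted side weights each cell-cycle fraction equally, whereas bulk cells hold the phases in their own proportions. Of 49 tested G1/S genes 27 were higher and 5 lower, and of 62 G2/M genes 25 and 8. The G1/S share of higher calls is near the 55.7% of all genes tested and the G2/M share below it. With median-ratio scaling 14 G1/S genes were higher and 15 lower, and 10 and 23 G2/M genes. PCNA, the sliding clamp of replication, was lower (-1.33 ± 0.44), and CLSPN, claspin, of the replication checkpoint, higher (2.53 ± 0.38). PTTG1, securin, was lower (-1.86 ± 0.15), and KIF22, a chromosome-arm kinesin, was higher (2.13 ± 0.38).

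**Figure D3:**
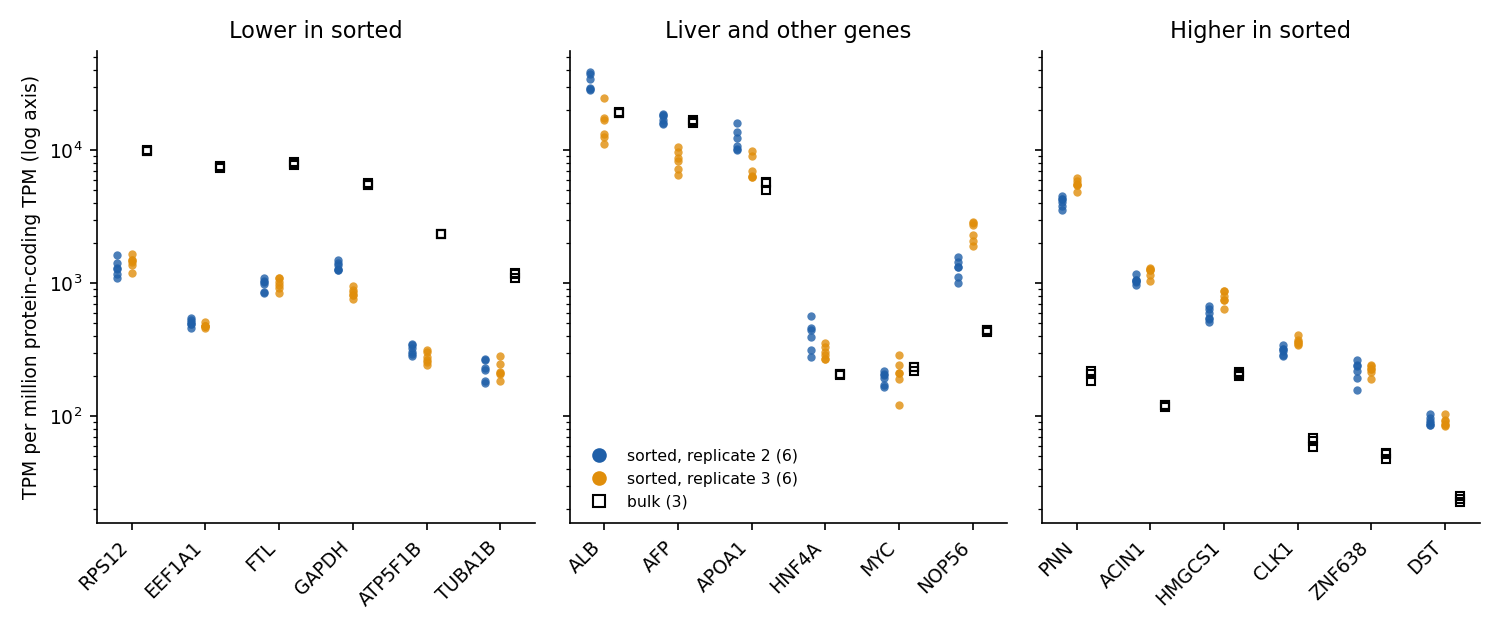
TPM of 18 genes in every library on a log axis, with the 6 sorted libraries of replicate 2 in blue, the 6 of replicate 3 in orange and the 3 bulk libraries as open squares. Bulk lies above every sorted library for the 6 genes of the left panel and below every one for the 6 of the right panel. ALB, AFP, APOA1, NOP56 and GAPDH are among the genes that also separate the 2 sorted replicates.

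On the higher side stood zinc-finger, chromatin, splicing and scaffold mRNAs. Of 508 numbered ZNF genes 383 were tested, and 350 were higher and 10 lower, with a median of 1.85 (median-ratio scaling: 285 and 29). These genes mostly encode repressors of transposable elements and of other genes, and many lie in clusters on chromosome 19. All 508 together, tested or not, took 16947 ± 1794 TPM in sorted and 6192 ± 76.0 TPM in bulk libraries (SD). The 190 tested members on chromosome 19 had a median of 1.88 and the 193 elsewhere of 1.70, so both stood over the 0.72 of the 625 other genes of that chromosome. ZNF638, which also binds RNA, read 52.2, 53 and 48.0 TPM in bulk and from 158 to 267 with a median of 226 TPM in sorted libraries, with a wide gap between them (2.09 ± 0.09, limma adjusted p = 6.62e-09). ZNF189 was higher (1.76 ± 0.20), and ZNF622, a ribosome maturation factor in spite of its name, differed less (0.55 ± 0.15), a call lost with median-ratio scaling (-0.21, adjusted p = 0.0683). The exceptions were few, with ZNF385B and ZNF581 lower (-2.30 ± 0.34 and -1.62 ± 0.19).

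Regulators of splicing were mostly higher. Of 29 tested SR proteins, CLK kinases and their partners 26 were higher and 2 lower (median 1.54), and all 31 genes of the list took 4109.6 ± 159.6 TPM in bulk and 15144 ± 1743 TPM in sorted libraries (SD), a ratio of 3.69. PNN, pinin, a protein of the exon junction and nuclear speckles, read 207, 219 and 184 TPM in bulk and from 3549 to 6145 with a median of 4702 TPM in sorted libraries, which made it the sixth gene of the sorted side (4.55 ± 0.19, limma adjusted p = 3.87e-09). ACIN1, which sits with pinin in the same complex, read 117, 122 and 121 TPM and from 976 to 1306 with a median of 1109.7 TPM, again far apart (3.23 ± 0.11, limma adjusted p = 1.16e-09). Both genes overlap others in RefSeq, PNN 1 and ACIN1 3. CLK1, a kinase of SR proteins whose own transcript is known to be held in the nucleus with introns, read 65.3, 68.6 and 58.5 TPM in bulk and from 286 to 412 with a median of 344 TPM in sorted libraries and overlaps no other gene (2.38 ± 0.13, limma adjusted p = 2.13e-08). SRSF8 was lower (-1.19 ± 0.16). The hnRNP proteins and spliceosome scaffolds were more divided, with 19 higher and 8 lower of 31 (median 0.39), against 55.7% and 18.7% of all genes tested. That list stood at -0.29 from the median gene, and median-ratio scaling gave 6 higher and 17 lower. HNRNPA0, which has a single coding exon, was lower (-2.62 ± 0.15).

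Chromatin enzymes were higher almost throughout. Of 40 tested histone methyltransferases and demethylases 33 were higher and 1 lower (median 1.13), and of 40 tested remodellers and coactivators 37 and 1 (median 1.26). With median-ratio scaling the higher calls were 19 and 25 and the lower calls 4 and 4. KMT2C, a methyltransferase of enhancers, stood at 8.08, 8.65 and 8.45 TPM in bulk and from 36.8 to 51.2 with a median of 43.2 TPM in sorted libraries, without overlap (2.23 ± 0.10, limma adjusted p = 8.01e-09). EZH1, of the Polycomb complex, NCOA3, a coactivator of nuclear receptors, and HELLS, a remodeller needed for DNA methylation, differed by 2.49 ± 0.18, 2.22 ± 0.24 and 3.11 ± 0.26. The lower members of these lists were KDM3B (-0.28 ± 0.09) and BAZ2A (-0.58 ± 0.16).

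Giant scaffolds shared the direction. Of 48 tested genes for very large cytoskeletal, trafficking and kinase proteins 44 were higher and 0 lower (median 1.57). DST, dystonin, read 23.8, 25.2 and 22.6 TPM in bulk and from 83.7 to 105 with a median of 90.5 TPM in sorted libraries, close together within each side (1.89 ± 0.08, limma adjusted p = 6.89e-09). SYNE2, a giant protein of the nuclear envelope, was higher by 2.65 ± 0.18 and PLEC, plectin, which links filaments, by 3.31 ± 0.38. AHNAK, a giant protein whose coding region is nearly all in 1 exon, did not pass (-0.43 ± 0.46, limma adjusted p = 0.406).

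Cholesterol synthesis and its SREBP regulators were the metabolic list on the higher side. Of 24 tested 18 were higher and 1 lower (median 1.34), and 15 and 4 with median-ratio scaling. HMGCS1, which makes HMG-CoA, read 206, 213 and 200.5 TPM in bulk and from 511 to 875 with a median of 656 TPM in sorted libraries, with no overlap (1.70 ± 0.18, limma adjusted p = 4.92e-06). FDFT1, squalene synthase, which makes the first sterol-specific intermediate, had 1.39 ± 0.530 TPM in bulk and 81.1 ± 20.2 TPM in sorted libraries (5.09 ± 0.22).

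The difference grew with the length of the gene. By the counted exon length recovered from the TPM values, the genes were divided into 10 groups of about equal size. The group at 375 to 2211 bases had a median difference of 0.12 and the group at 12068 to 70573 bases of 1.15. In the shortest group 36.9% were higher and 31.2% lower, and in the longest 76.7% and 6.98%, against 55.7% and 18.7% of all genes tested. Without ribosomal proteins the shortest group had a median of 0.14. The list of 23 tested single-exon transcription and signalling genes had a median of 0.41. All 424 tested genes whose counted length was at least 95% of their genomic span had a median of 0.61. Of these 51.9% were higher and 23.1% lower. Counted length includes every annotated exon, so it can exceed the length of the main mRNA.

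**Figure D4:**
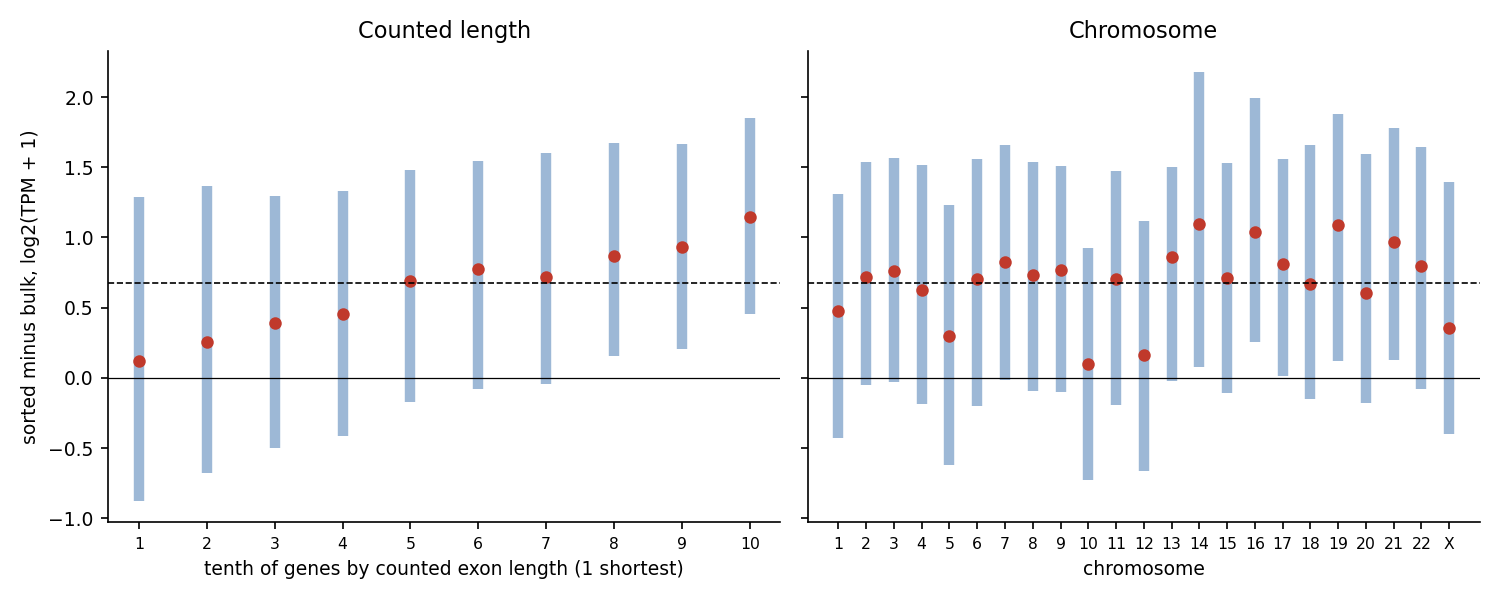
Sorted minus bulk difference on the log2(TPM + 1) scale by group of counted exon length (left, 375 to 70573 bases) and by chromosome (right), with medians as red points and interquartile ranges as bars. Length medians go from 0.12 to 1.15; chromosome medians go from 0.10 on chromosome 10 to 1.10 on chromosome 14, and the dashed line marks all genes at +0.68.

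The largest single differences were closer to presence and absence. Among called genes with a mean of at least 20 TPM and no overlap between sides, the 10 largest falls were PLA2G2A, PLP2, DEFB1, S100A4, MFNG, CD24, TSPAN8, IFITM2, EEF1A1 and S100A11. PLA2G2A, a secreted phospholipase (chromosome 1, 19975431 to 19980434), read 757, 779 and 782 TPM in bulk and from 0 to 12.8 with a median of 3.35 TPM in sorted libraries (-7.57 ± 0.46, limma adjusted p = 5.85e-08). S100A4, a calcium-binding protein known from motile cells (chromosome 1, 153543621 to 153545806), read 479.8, 500.1 and 501 TPM in bulk and from 1.15 to 10.8 with a median of 5.58 TPM in sorted libraries (-6.41 ± 0.49, limma adjusted p = 3.22e-07). The sorted libraries of both genes stayed close to 0. PLP2, a membrane proteolipid, DEFB1, a defensin, and MFNG, a glycosyltransferase that modifies Notch, were lower too (-6.69 ± 0.47, -6.49 ± 0.34 and -5.25 ± 0.47). CD24 and TSPAN8, surface proteins of epithelial cells, differed by -5.21 ± 0.31 and -4.67 ± 0.37, and the interferon-induced IFITM2 by -3.97 ± 0.27. Apart from EEF1A1, none of the 10 belongs to the ribosomal or translation lists. The rule that chose the 10 falls required every sorted library to lie below bulk. PLA2G2A, PLP2, DEFB1, MFNG and TSPAN8, with sorted means under 5 TPM, also passed the limit through their bulk level. The direction and p-values of the 10 falls are thus no separate evidence.

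The 10 largest rises were COL4A5, ZNF594, PLG, MOGAT1, ALCAM, MPDZ, ZNF460, FAM20A, ALDH1L1 and FAM184A. COL4A5, a basement membrane collagen (chromosome X, 108439838 to 108697545), had 2 reads in the 3 bulk libraries together and 13281 in the 12 sorted ones. Its sorted libraries read from 65.9 to 121 with a median of 90.3 TPM, and the ratio of the means was 7239 with a 95% counting interval of 2004 to 59784, which covers counting error only. ZNF594 (chromosome 17, 5174083 to 5191868) had no bulk read and 5390 sorted ones. Its sorted libraries read from 60.1 to 115 with a median of 79.6 TPM, at least 634-fold higher against a floor of 3 reads per bulk library. ALCAM, a cell adhesion molecule (chromosome 3, 105366909 to 105576900), read 0.295, 0.556 and 0.193 TPM in bulk and from 68.0 to 111 with a median of 88.7 TPM in sorted libraries (6.04 ± 0.13, limma adjusted p = 8.69e-11). ZNF460 read 1.58, 2.29 and 2.77 TPM and from 161 to 215 with a median of 195 TPM. The rule that chose the 10 rises required every sorted library to lie above bulk. These genes also passed the limit of 5 TPM through their sorted level, so their direction and p-values are no separate evidence. PLG, plasminogen, a plasma protein of the liver, was uneven, at 0.0947, 0.0263 and 0.0259 TPM in bulk and from 16.7 to 280.2 with a median of 132 TPM in sorted libraries (6.30 ± 1.12, limma adjusted p = 0.000322). MOGAT1, a lipid-synthesis enzyme, had 2 bulk reads, and its ratio of means was 639 (176.5 to 5281, counting error only). ALDH1L1, a folate enzyme of liver and glia, differed by 5.75 ± 0.25, MPDZ, a scaffold of tight junctions, by 5.96 ± 0.19, FAM20A by 5.75 ± 0.17 and FAM184A by 5.67 ± 0.24.

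Genes that no growing cell is known to lack were among those near 0 in bulk. PSMA6, a core subunit of the proteasome, read 1.76, 1.95 and 1.78 TPM in bulk and from 50.4 to 101 with a median of 76.2 TPM in sorted libraries (4.75 ± 0.20, limma adjusted p = 4.54e-09). UQCRC2, a core subunit of respiratory complex III, read 1.29, 1.28 and 0.957 TPM and from 39.0 to 76.8 with a median of 53.3 TPM (4.67 ± 0.21, limma adjusted p = 6.16e-09). NDUFV2, of complex I, differed by 4.88 ± 0.30 and FDFT1, of sterol synthesis, by 5.09 ± 0.22. These genes were named for the size of their change and passed the limit of 5 TPM through their sorted level. Their direction and p-values are thus no separate evidence. PSMA7, a partner of PSMA6 in the same ring, was at 574 ± 19.8 TPM in bulk. A bulk value near 0 is thus not by itself a measure of a silent gene. Among 102 genes with a difference of at least 4 log2 units 69.6% overlapped another RefSeq gene, against 58.6% of all tested and 47.1% of the 227 genes at -2 or less. The sources used here do not give how reads in overlapping genes were counted, and the part of overlap in the result was not tested.

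The sorted replicates differed from each other in some lists and not in others. In each sorted library, the list median was taken against the median gene of that library, relative to the bulk mean. It was -2.71 to -2.38 for ribosomal proteins, -1.38 to -1.01 for the respiratory chain, 0.53 to 0.84 for cholesterol synthesis, 0.80 to 1.06 for giant scaffolds and 0.95 to 1.21 for zinc-finger genes. All 12 libraries were on the same side in these lists, whatever their fraction or replicate. For plasma carriers the values ran from -1.36 to 0.62, for coagulation and complement from -0.46 to 0.81 and for p53 targets from -0.77 to 0.20, with replicate 2 above replicate 3 in the first 2 lists and below it in the last. With replicate 2 alone the plasma carriers stood at 0.51 and with replicate 3 alone at -0.97. G2/M genes ran from -2.04 to 0.82, the widest range of these lists, in fractions that hold different phases.

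**Figure D5:**
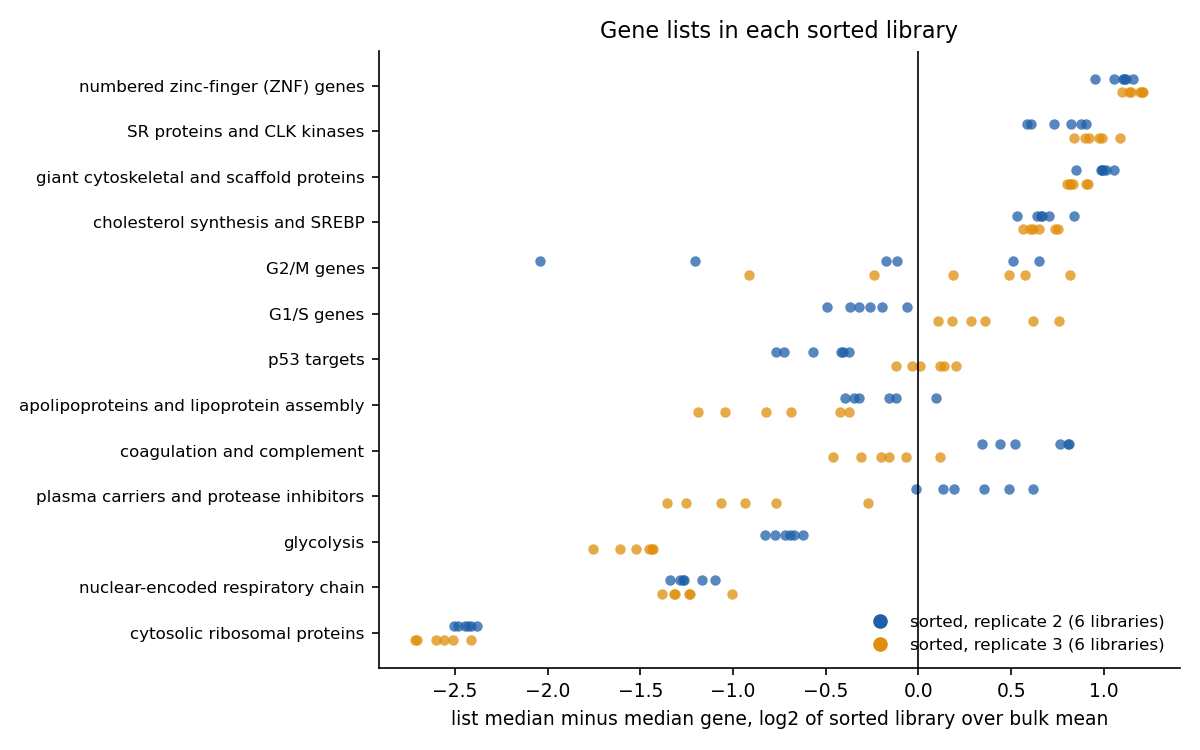
Median of 13 gene lists in each of the 12 sorted libraries, as log2 of the library over the bulk mean minus the value of that library's median gene (x axis), with replicate 2 in blue and replicate 3 in orange. Ribosomal proteins lie between -2.71 and -2.38 and zinc-finger genes between 0.95 and 1.21 in all 12 libraries, while plasma carriers and G1/S genes separate by replicate.

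The 8489 protein-coding genes below the limit took 8780 ± 2029 TPM in sorted and 2531 ± 38.0 TPM in bulk libraries (SD), and 801 of them were at 0 in all 15 libraries. Genes that liver cells are not known to use were among them. None of 380 olfactory receptor genes passed the limit, and together they took 117 ± 50.4 TPM in sorted and 5.95 ± 1.95 TPM in bulk libraries. At least 1 read fell on all but 102 of them in some sorted library, and on all but 364 in some bulk library. The 28 genes of a list of very long neuronal genes, tested or not, took 98.7 ± 13.1 TPM in sorted and 14.7 ± 0.549 TPM in bulk libraries.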

How the data were processed

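RNA-seq values of 12 sorted and 3 bulk HepG2 libraries were compared. The authors deposited log2(TPM + 1) per Ensembl gene. Per the submitters' processing notes, the genome build was hg38 and the tools were HISAT2, BWA, SAMtools, Trimmomatic and cutadapt, with no roles stated. For the gene annotation, the counting program and the strand setting, the sources used here give nothing. Per the labels' protocols, about 40000000 reads were planned for a sorted and 20000000 for a bulk library, as pairs of 150 bases. A test on TPM had been planned, so the deposited log2 values were turned back to TPM, which summed to 1000000 in every library. Genes were matched to RefSeq (GRCh38.p14) by Ensembl identifier, and by symbol or synonym where RefSeq gave no such identifier. Replication-dependent histone genes, mitochondrial genes and 30 duplicate identifiers were left out, and each library was rescaled to 1000000. Whole read counts and gene lengths were recovered from the steps of the TPM values for all 10746 tested genes, within 0.01 of a whole read, and serve only to state depth, length and counting intervals, and in 1 alternative (voom).

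The test was limma 3.58.1 (R 4.3.3), with a trended variance, on log2(TPM + 1) over 7 groups. It contrasted the mean of the 6 sorted groups with bulk, with 8 residual degrees of freedom and Benjamini-Hochberg adjustment over all genes tested, at 0.05. Fold differences are thus on the log2(TPM + 1) scale, which understates those of low genes. The procedure was first tested on simulated data.

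Named genes are a fixed set, the 10 largest rises and falls among called genes with a mean of at least 20 TPM and no overlap, and from each of 45 lists at most 3 genes by mean level and, per direction, at most 2 called genes by size of change. RPL13A, RPL3, ZNF189, PTPRC and the genes beside the limit of 5 TPM lie outside this rule. The members and lists were chosen with earlier results of these data known. Some members of the lists are not reported here by name. Alternatives changed the pseudocount, filter, scaling, variance model, libraries and genes. The one on genes without overlap was chosen after seeing the data.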

Additional observations from a re-analysis of the deposited data

Results flagged for a closer look

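In 4 cases every sorted library of one replicate lay on one side of bulk, or of the median gene, and every sorted library of the other replicate on the other side. CDKN1A, the cell-cycle inhibitor induced by p53, was below bulk (187, 188 and 195 TPM) in the 6 libraries of replicate 2, at 58.1 to 133 TPM, and above it in the 6 of replicate 3, at 206 to 445 TPM, and the replicates differed by 1.81 log2 units. LYZ, lysozyme, was above bulk (2474, 2551 and 2329 TPM) in replicate 2, at 2591 to 3366 TPM, and below it in replicate 3, at 1207 to 1758 TPM, a difference of 1.04. The median of the G1/S genes was above the median gene in replicate 3 and below it in replicate 2, by 0.668 between the replicates. The median of the HepG2 hepatocyte markers was above the median gene in replicate 2 (0.12 to 0.55) and below it in replicate 3 (-0.81 to -0.30), by 0.971 between them. These differences between the replicates were not tested, and the labels give no condition that separates the replicates.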

How the results depend on the processing

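Scaling moved the counts of calls. With quantile normalization 3538 genes were higher and 3403 lower, 1840 and 1843 of them by at least 1 log2 unit. With median-ratio scaling 3711 were higher and 4163 lower, 2254 and 2527 by at least 1. On the deposited TPM, without rescaling to protein-coding genes, 598 were higher and 8888 lower, 251 and 7595 by at least 1. Among 4453 genes that overlap no other gene 2276 were higher and 974 lower, 1647 and 529 by at least 1, from fewer genes tested. With sorted replicate 2 alone 6736 were higher and 3028 lower, and with replicate 3 alone 7226 and 2661. Sorted and bulk libraries of the same number did not deviate together (correlation -0.177 to -0.0897), and with the number as a replicate block 6194 were higher and 2125 lower. Leaving out 1 library gave 5474 to 6086 higher and 1707 to 2068 lower calls, and moved none of 40 list medians beyond the spread between libraries.

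Of 719 other recomputations of list medians against the median gene, 605 stayed within the spread between libraries, 108 moved beyond it and 6 reversed. Apolipoproteins stood at 0.34, hnRNP genes at 0.36 and matrix genes at 0.24 with quantile normalization, Mediator at 0.0203 without a filter and 0.0293 with sorted replicate 2 alone, and matrix genes at 0.013 among genes without overlap. Of single genes, these differences reversed on the deposited TPM: EEF1B2 -0.14, ACTG1 -1.13, ALB -2.39, APOA1 -1.84, FGB -1.47, HNF4A -1.85, CALR -1.57, HMGCS1 -0.91, DST -0.64, KMT2C -0.22, EZH1 -0.0384, NCOA3 -0.37, ZNF638 -0.49, ZNF622 -2.02, ZNF189 -0.81, CLK1 -0.215, NOP56 -0.61, MDN1 -0.45, KIF22 -0.46, JUN -0.66 and MDM2 -1.16. With median-ratio scaling ALB was at -0.55, HNF4A at -0.0267 and ZNF622 at -0.21. With quantile normalization PSMA7 was at 0.23, APOH at 0.11, A2M at 0.0465 and LYZ at 0.48. With replicate 2 alone AFP was at 0.0618, AHNAK at 0.24 and LYZ at 0.31, with replicate 3 alone ALB at -0.31 and CDKN1A at 0.65, and with voom ALB at -0.0617. The cause was not tested. Of 1890 values of 126 named genes without 1 library, 17 lost and 6 gained a call. Of 2200 values under the other alternatives, 29 lost and 39 gained one. The 3 bulk libraries and the 2 sorted replicates limit the precision of every difference, and sorted libraries hold fewer reads. The main test treated the 12 sorted libraries as independent, although those of the same replicate number deviate together. Standard errors and p-values are thus too small for genes that split by replicate, such as MDM2, PLG, NOP56, APOA1 and GAPDH.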

Other observations

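Chromosomes differed in their median gene. Chromosome 10 (423 genes tested) stood lowest at 0.10 and chromosome 12 (584) at 0.16, with 31.9% and 30.3% of their genes lower in sorted libraries against 18.7% of all tested. Chromosome 5 stood at 0.30 and the X chromosome at 0.36. Chromosome 14 (365 genes) stood highest at 1.10, with 64.9% higher, and chromosome 16 at 1.04. Chromosome 19 stood at 1.09, and at 0.72 without its zinc-finger genes. These are descriptions over genes, with no test.

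Among the genes tested, those near 0 on one side were nearly all near 0 in bulk. The limit itself favours this imbalance, since sorted libraries are 12 of the 15 in the mean. In bulk 376 tested genes were under 1 TPM on average, and 34 had no read in any bulk library. Such a gene passed the limit of 5 TPM only through its sorted level, so its direction was fixed by the choice of genes. In sorted libraries 6 tested genes were under 1 TPM, ALPL, CCDC8, DEFB1, NRCAM, PRF1 and RAB25, which passed only through bulk. With both sides weighted equally, 5738 of 10516 genes were higher and 2048 lower. Genes under 1 TPM in bulk and at 50 TPM or more in sorted libraries numbered 14, with the liver genes PLG and ACSM2A, the DNA repair enzyme PARP2 and the disulfide isomerase TXNDC5 among them, chosen here after their values were seen.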
